A study of Mus musculus with 6 samples.

Results

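The cytochrome P450 (Cyp) genes of the kidney were compared between sham mice and mice with DOCA-salt hypertension. Members were all genes of the deposited feature list whose symbol is Cyp followed by a number, a letter and a number, with pseudogene symbols left out. Of 33696 listed genes 100 fitted this rule, and the 59 with at least 20 unique molecular identifiers (UMIs) over all 6 mice were kept. The kidneys came from male C57BL/6 mice. The 3 DOCA-salt mice had lost the left kidney, carried a 50 mg pellet of deoxycorticosterone acetate (DOCA, a mineralocorticoid) and drank 1% NaCl for 21 days. The 3 sham mice had a sham operation, no pellet and normal water. The effect of nephrectomy cannot be told apart from that of DOCA-salt. Each library held the dissociated cells of 1 mouse, so n is 3 mice per group throughout.

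P450 enzymes are haem proteins that use electrons from NADPH to put oxygen into fatty acids, sterols, vitamins, hormones and drugs. In the kidney the proximal tubule is the main site of many of them. It makes the active form of vitamin D with Cyp27b1 and degrades it with Cyp24a1. Enzymes of the Cyp4a subfamily hydroxylate arachidonic acid to 20-HETE, which acts on vessels and on sodium transport, and those of the Cyp2j and Cyp2c subfamilies make epoxides from the same fatty acid.

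The files held 76774 cell barcodes, of which 55630 cells remained after the filters and the removal of likely doublets. A mouse gave between 7701 and 9933 cells and between 65101025 and 103296040 UMIs in those cells. Libraries shared between 0.19% and 0.41% of barcodes with each other. Proximal tubule cells were named from their markers, all 9 of which were highest in that class. They made up 63.4% to 67.8% of the cells of a sham mouse and 51.2% to 58.8% of those of a DOCA-salt mouse. These shares include a cluster of 7726 cells with a median of 713 UMIs, 28.2% of them from sham mouse 3. Against the other proximal tubule clusters its leading genes included markers of the connecting tubule (Klk1, S100g) and the thick ascending limb (Umod). One cluster of 662 cells, 94.6% of them from DOCA-salt mouse 2, and another of 822 cells stayed unnamed and entered only the whole-kidney sums. Leading genes of the latter included Cp, Ncam1, C3, the podocyte marker Wt1 and the injured tubule marker Sox9. Levels are given as CPM, the UMIs of a gene per 1000000 UMIs of the summed cells of a mouse. Because the libraries read the 3′ end of transcripts, levels are compared between mice or cell types for 1 gene, not between genes.

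In proximal tubule cells 42 of the 59 Cyp genes passed the filter on low counts. Of these, 9 fell in the DOCA-salt mice and 4 rose (edgeR quasi-likelihood test, adjusted p below 0.05), while 2.38% of all 16229 genes tested fell and 5.07% rose. The genes that fell were Cyp4a12a, Cyp4a12b, Cyp4a32, Cyp4b1, Cyp2j8, Cyp2j9, Cyp2j13, Cyp2a4 and Cyp2f2. Those that rose were Cyp27b1, Cyp7b1, Cyp4f16 and Cyp4v3, of which the latter pair had lower levels here than in nearly all other cell types. The 2 groups of mice did not overlap for 13 Cyp genes that were lower and 10 that were higher, against 9.03% and 20.4% of all genes. The median log2 change was -0.13 over the Cyp genes tested and -0.02 over all genes. Of the remaining members 29 were tested without passing the threshold and 17 had too few counts. Lower values in such sums of cells can mean fewer cells with the transcript or less of it per cell, which the sums cannot tell apart.

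**Figure D1:**
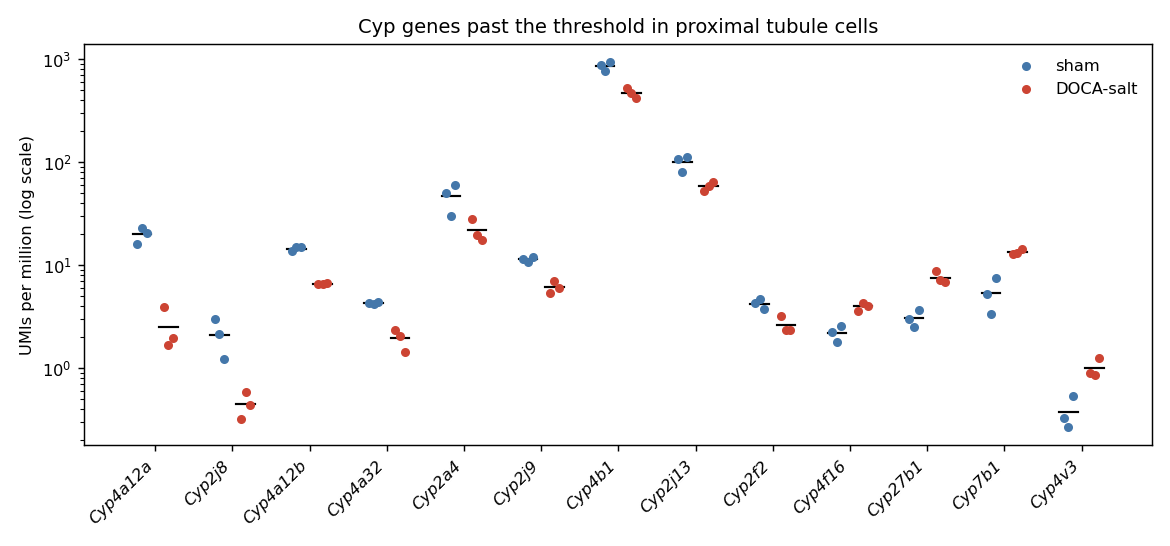
The level of each of the 13 Cyp genes past the threshold in proximal tubule cells, in CPM on a log axis, with 1 point per mouse and a bar at the mean of the 3 mice of a group. The 3 DOCA-salt mice lie below the 3 sham mice for the 9 genes on the left and above them for the 4 on the right.

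Among the fatty acid hydroxylases, Cyp4a12a, an enzyme that makes 20-HETE in male mice, changed most. Its level was 16.2, 22.8 and 20.6 CPM in the sham mice and 3.91, 1.69 and 1.95 CPM in the DOCA-salt mice. Every DOCA-salt mouse was thus far below every sham mouse, with a log2 change of -3.03 ± 0.31 (SE, adjusted p = 0.0014 by edgeR). Its close copy Cyp4a12b stood at 13.6, 14.9 and 14.96 CPM in sham and at 6.50, 6.64 and 6.69 CPM in DOCA-salt. The mice of each group were close to each other, and the log2 change was -1.20 ± 0.11 (adjusted p = 0.0010 by edgeR). Because these paralogs share sequence, reads may be split between them and the size of each change is uncertain.

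Cyp4b1, which hydroxylates fatty acids and activates foreign compounds, was read far more deeply, with at least 15315 UMIs in the proximal tubule cells of each mouse. It gave 876, 773 and 935 CPM in sham and 530, 470 and 420 CPM in DOCA-salt, without overlap. The log2 change was -0.93 ± 0.14 (adjusted p = 0.0078 by edgeR). Cyp4a32, a member of the same subfamily as Cyp4a10, was between 4.16 and 4.44 CPM in sham and between 1.43 and 2.34 CPM in DOCA-salt (log2 change -1.20 ± 0.20). Its gene lies on the opposite strand from Cyp4b1 and the 2 overlap at their ends. Strand use in the counting was not stated, so reads of the overlap could count for either.

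The other 3 genes of the Cyp4a subfamily did not pass the threshold. Cyp4a14, an inducible target of PPAR-alpha, ranged from 71.8 to 321 CPM among the sham mice and from 223 to 324 CPM among the DOCA-salt mice, so the groups overlapped (log2 change 0.37 ± 0.42). Cyp4a10, also a PPAR-alpha target, gave 212 ± 55.7 CPM (SD) in sham and 224 ± 52.6 CPM in DOCA-salt (log2 change 0.02 ± 0.21). Cyp4a31 gave 119 ± 35.6 and 150 ± 26.2 CPM (log2 change 0.26 ± 0.22).

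The epoxygenase subfamily Cyp2j showed the same division, with 3 of 7 genes lower and 4 not past the threshold. Cyp2j8 had few counts, from 48 to 181 UMIs in a sham mouse and from 16 to 29 in a DOCA-salt mouse. That is 3.00, 2.16 and 1.22 CPM in sham against 0.318, 0.582 and 0.439 CPM in DOCA-salt. The groups were apart, with a log2 change of -2.32 ± 0.36 (adjusted p = 0.0081 by edgeR). Cyp2j9 fell from 11.4 ± 0.57 to 6.14 ± 0.88 CPM (log2 change -0.96 ± 0.14) and Cyp2j13 from 100.2 ± 17.7 to 58.2 ± 5.73 CPM (log2 change -0.85 ± 0.14). In contrast, Cyp2j5, the best studied renal member, gave 812, 822 and 703 CPM in sham and 761, 807 and 866 CPM in DOCA-salt. These values overlapped, and the log2 change was -0.01 ± 0.12. Cyp2j6 and Cyp2j11 had log2 changes of -0.01 ± 0.12 and 0.04 ± 0.09. Cyp2j7 was lower in each DOCA-salt mouse but missed the threshold (log2 change -0.59 ± 0.17, adjusted p = 0.064 by edgeR).

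All of these genes lie on chromosome 4, which holds 15 of the 59 members. On GRCm39 the 7 Cyp2j genes fill positions 95915771 to 96552451, all on the minus strand. The Cyp4 genes from Cyp4a12a to Cyp4b1 fill positions 115156243 to 115504999. In both blocks genes that fell stand next to genes that did not pass the threshold. Cyp2j8 (96332833 to 96395623) and Cyp2j9 (96445637 to 96479941) flank Cyp2j6 (96404375 to 96441935). In the Cyp4 block, Cyp4a14, Cyp4a10 and Cyp4a31 lie between Cyp4a12b and Cyp4a32.

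**Figure D2:**
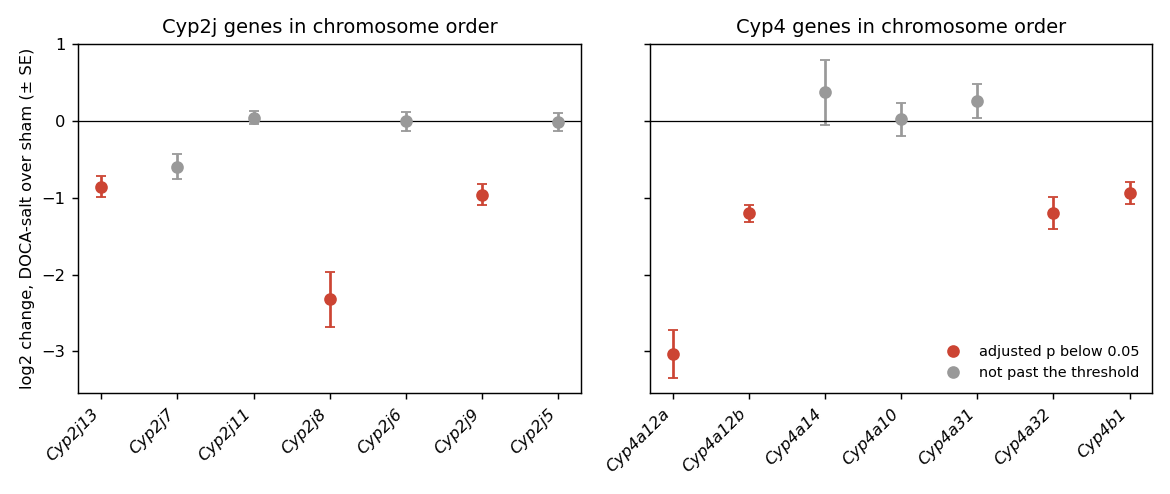
The log2 change in proximal tubule cells (DOCA-salt over sham, ± SE, 3 mice per group) of the Cyp2j genes and of the tested Cyp4 genes of chromosome 4, in the order in which they lie there. Red points passed the threshold, with 3 of 7 Cyp2j genes and 4 of 7 Cyp4 genes lower, and grey points did not.

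The 250 bases before the start are shown for the 5 genes of these blocks that fell and have a RefSeq promoter entry, since neighbours of 1 block differed in their change. They are from the RefSeq table of GRCm38.p6, written 5′ to 3′ in the direction of the gene. Cyp2j13 has 2 entries, of which the one at the lower coordinates is shown. Capitals mark the site AGAACA of steroid receptors such as the mineralocorticoid receptor, or its reverse complement TGTTCT.

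Cyp4a32 (chr4:115600688-115600937, + strand): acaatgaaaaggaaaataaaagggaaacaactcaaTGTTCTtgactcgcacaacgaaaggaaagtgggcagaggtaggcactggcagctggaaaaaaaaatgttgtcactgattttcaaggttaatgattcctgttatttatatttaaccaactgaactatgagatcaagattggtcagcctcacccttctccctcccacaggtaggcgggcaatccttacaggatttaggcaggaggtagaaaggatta
Cyp4b1 (chr4:115647722-115647971, - strand): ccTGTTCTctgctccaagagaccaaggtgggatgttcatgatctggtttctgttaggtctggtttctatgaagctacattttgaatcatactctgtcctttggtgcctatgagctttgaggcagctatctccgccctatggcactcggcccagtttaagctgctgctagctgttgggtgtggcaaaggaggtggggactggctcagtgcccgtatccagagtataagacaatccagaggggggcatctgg
Cyp2j8 (chr4:96507398-96507647, - strand): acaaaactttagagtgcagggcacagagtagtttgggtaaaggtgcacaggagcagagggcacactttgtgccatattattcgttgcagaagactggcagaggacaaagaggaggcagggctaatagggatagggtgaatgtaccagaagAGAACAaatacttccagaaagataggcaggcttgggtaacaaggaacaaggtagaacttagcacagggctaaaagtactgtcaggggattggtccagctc
Cyp2j9 (chr4:96591486-96591735, - strand): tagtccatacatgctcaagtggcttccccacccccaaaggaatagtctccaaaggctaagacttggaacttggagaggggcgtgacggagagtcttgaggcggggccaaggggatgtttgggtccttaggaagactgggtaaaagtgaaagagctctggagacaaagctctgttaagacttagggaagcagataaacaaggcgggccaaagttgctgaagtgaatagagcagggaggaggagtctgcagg
Cyp2j13 (chr4:96077541-96077790, - strand): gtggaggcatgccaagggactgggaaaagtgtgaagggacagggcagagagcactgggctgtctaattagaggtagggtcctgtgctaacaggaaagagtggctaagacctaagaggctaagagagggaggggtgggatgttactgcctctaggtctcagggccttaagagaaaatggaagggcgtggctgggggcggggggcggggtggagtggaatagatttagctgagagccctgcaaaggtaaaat

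The site begins 215 bases before the start in Cyp4a32, 248 before it in Cyp4b1 and 100 before it in Cyp2j8, and the letters are not in the windows shown for Cyp2j9 and Cyp2j13. Cyp2j6, which did not pass the threshold, also holds them. Over both strands 16.1% of 32851 RefSeq windows of this length hold the site, as do 7 of the 47 windows of the 42 members with an entry. The full palindrome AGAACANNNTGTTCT was in 3 of all windows, and in 0 of the members' windows.

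Of the genes that metabolise drugs and steroids, Cyp2a4, a steroid 15-alpha-hydroxylase, gave 50.4, 29.9 and 59.6 CPM in sham and 27.9, 19.8 and 17.6 CPM in DOCA-salt. The lowest sham mouse stood just above the highest DOCA-salt mouse (log2 change -1.16 ± 0.26, adjusted p = 0.032 by edgeR). Cyp2f2 went from 4.24 ± 0.45 to 2.64 ± 0.48 CPM (log2 change -0.74 ± 0.18, adjusted p = 0.044 by edgeR). Neither passed the threshold without sham mouse 1 or 3 or without DOCA-salt mouse 2 or 3 (adjusted p of up to 0.131 for Cyp2a4 and 0.176 for Cyp2f2 over all alternatives). The call of Cyp2f2 was also lost when scaled by library size only and at Leiden resolution 2. Cyp2a5, a near copy of Cyp2a4, had a log2 change of -0.89 ± 0.24 and missed the threshold (adjusted p = 0.056). Cyp2e1, which oxidises ethanol and other small molecules, gave 274 ± 78.5 CPM in sham and 245 ± 32.3 CPM in DOCA-salt, with overlap (log2 change -0.23 ± 0.21). The 4 tested Cyp2c genes did not pass the threshold either, and their median log2 change was -0.17.

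Of the 4 vitamin D genes 1 rose. Cyp27b1, the 1-alpha-hydroxylase that makes the active hormone, gave 3.00, 2.52 and 3.70 CPM in sham and 8.80, 7.12 and 6.80 CPM in DOCA-salt. All 3 DOCA-salt mice were above all sham mice, with a log2 change of 1.24 ± 0.19 (adjusted p = 0.0074 by edgeR). The degrading 24-hydroxylase Cyp24a1 varied between mice, from 28.8 to 71.6 CPM in sham and from 35.5 to 71.1 CPM in DOCA-salt. Its log2 change was -0.11 ± 0.34. The 25-hydroxylases Cyp2r1 and Cyp27a1 had log2 changes of -0.32 ± 0.19 and -0.25 ± 0.14, neither past the threshold.

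Cyp4f16 and Cyp4v3, omega-hydroxylases of other Cyp4 subfamilies, rose from 2.20 ± 0.38 to 3.98 ± 0.33 CPM (log2 change 0.78 ± 0.18) and from 0.38 ± 0.14 to 1.01 ± 0.22 CPM (log2 change 1.35 ± 0.32). Cyp4v3 rested on 12 to 48 UMIs per mouse. Over all 6 mice its mean of 0.69 CPM in proximal tubule cells was below that of every other type (1.40 to 28.4 CPM), and that of Cyp4f16, 3.09 CPM, was below all others (4.92 to 31.4 CPM) but B cells, where it was at 0. Some of these other types, such as macrophages, took a larger share of the cells in DOCA-salt mice. The part of RNA from other cells in the 2 rises was not tested. Without any 1 of 4 mice, sham mouse 1 or any DOCA-salt mouse, neither passed the threshold (adjusted p of up to 0.148 for Cyp4v3 and 0.124 for Cyp4f16 over all alternatives). The call of Cyp4v3 was also lost without doublet removal and at Leiden resolution 2.

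Cyp7b1, an oxysterol 7-alpha-hydroxylase, gave 5.29, 3.34 and 7.53 CPM in the proximal tubule cells of sham mice and 12.8, 13.1 and 14.4 CPM in those of DOCA-salt mice (log2 change 1.25 ± 0.25, adjusted p = 0.021 by edgeR). Most of its UMIs came from the few S3-like cells, 69.7% to 75.6% in a sham mouse and 79.1% to 86.1% in a DOCA-salt mouse. These cells made up 0.16% to 0.30% of proximal tubule cells in sham and 0.63% to 1.17% in DOCA-salt. Within the S3-like cells Cyp7b1 gave 1044 ± 332 CPM in sham and 782 ± 289 CPM in DOCA-salt, with overlap (log2 change -0.58 ± 0.28, adjusted p = 0.67). Outside them its level was 0.89 to 2.29 CPM in sham and 1.86 to 3.05 CPM in DOCA-salt. Cyp7b1 was among the genes that lead that cluster. Without sham mouse 1 or any 1 DOCA-salt mouse the rise over all proximal tubule cells missed the threshold (adjusted p of up to 0.0843 by edgeR).

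Shares of proximal tubule cells with at least 1 UMI were compared after each cell had been thinned to 1000 UMIs, which left out 4098 cells of sham and 3042 of DOCA-salt mice. Cyp4b1 was seen in 43.8%, 41.9% and 48.7% of the cells of the sham mice and in 33.4%, 27.3% and 28.1% of those of the DOCA-salt mice. Cyp2j13 was seen in 8.81 ± 1.60% and 5.17 ± 0.61% of cells, and Cyp2a4 in 4.01 ± 1.11% and 2.14 ± 0.44%. In each case the groups did not overlap, and the exact permutation p was 0.1, the smallest that 3 mice against 3 allow. These genes were taken because their sums in the same cells passed the threshold, at a mean of at least 20 CPM. The test of shares thus gives no separate support for their fall. Without thinning the shares of Cyp4b1 were 69.0 ± 1.08% and 59.0 ± 8.56%, at median depths of 6270 and 7634 UMIs. Unthinned, the groups overlapped for Cyp4b1 and Cyp2a4, each with an exact permutation p of 0.2. In T or NK cells, which should lack these genes, the thinned share was 5.08% to 13.0% in sham and 2.32% to 3.25% in DOCA-salt for Cyp4b1, and at most 1.00% for the other 2 genes. The median depth there was 3202 and 3910 UMIs.

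The proximal tubule has 3 segments, and their markers were used to name S1-like, S2-like and S3-like clusters, with the Cyp genes kept out of the clustering. A cluster of 7726 proximal tubule cells with few UMIs and one of 2579 led by Slc7a13, itself an S3 marker, were given no segment, so the segments do not cover all proximal tubule cells. A cluster of 4104 cells named S2-like also had Slc7a13 among its leading genes. In S1-like cells 7 of 40 Cyp genes tested fell and 2 rose, against 1.47% and 3.58% of all genes. In S2-like cells 8 of 36 fell and 4 rose, against 2.42% and 5.53%. Cyp4a12a, Cyp4a12b, Cyp2j8, Cyp2j9 and Cyp2j13 fell in both. For Cyp4a12a the S2-like level went from 16.99, 24.89 and 24.98 CPM to 3.54, 1.06 and 1.62 CPM (log2 change -3.35 ± 0.35), and the S1-like level from 13.5 ± 2.49 to 2.76 ± 1.05 CPM (log2 change -2.37 ± 0.27). Cyp4b1, Cyp2a4 and Cyp2a5 passed the threshold in S2-like cells, with log2 changes of -0.73 ± 0.15, -1.09 ± 0.23 and -0.68 ± 0.18. Their log2 changes in S1-like cells were similar, at -0.68, -1.02 and -0.69, but did not pass it. In S1-like cells Cyp4a32 and Cyp2d9 passed the threshold, with log2 changes of -1.43 ± 0.30 and -1.69 ± 0.36. Of these calls, those of Cyp4a12a and Cyp2j8 in both segments and of Cyp4a12b in S2-like cells held without each mouse in turn. The others were lost without DOCA-salt mouse 3 and, except for Cyp2j9 in S1-like cells, also without at least 1 of sham mice 1 and 3 and DOCA-salt mice 1 and 2 (adjusted p of up to 0.163 by edgeR over all alternatives). Cyp2j8 had too few UMIs in the DOCA-salt mice to pass the filter on low counts through that group in both segments. In at least 1 of them it thus passed only with the sham mice, where its level was higher. That its calls held without each mouse therefore adds no support. Whether the changes of S1-like and S2-like cells differ was not tested.

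**Figure D3:**
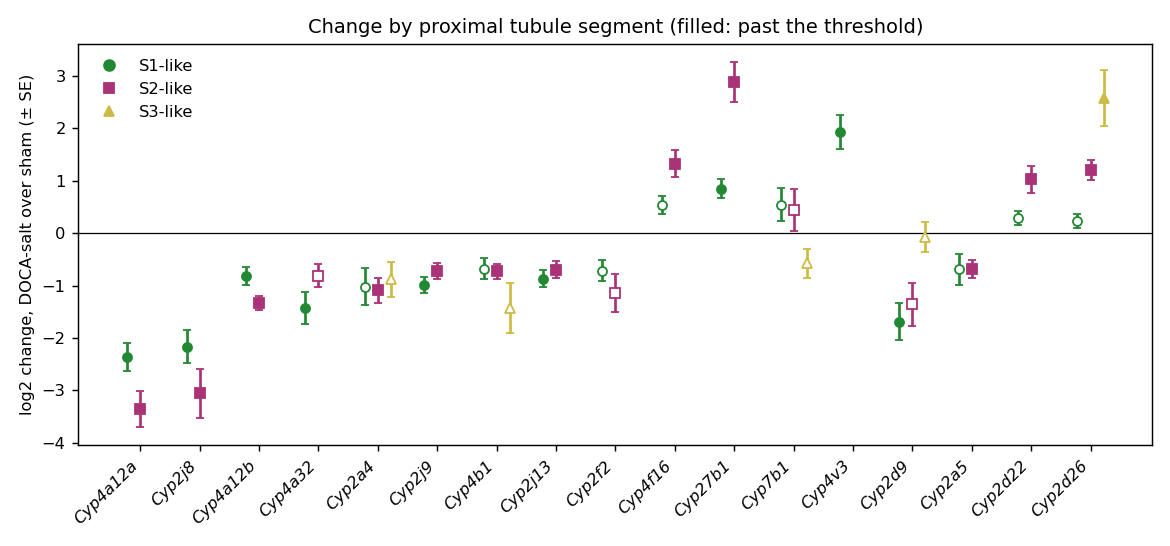
The log2 change (DOCA-salt over sham, ± SE, 3 mice per group) in S1-like, S2-like and S3-like proximal tubule cells for the Cyp genes past the threshold in proximal tubule cells or in a segment, where they could be tested. Filled symbols passed the threshold, and Cyp27b1 rose by 0.85 in S1-like and by 2.88 in S2-like cells. Its S2-like sham level was near that of free RNA, so 2.88 is a change over background.

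Cyp27b1 rose in both segments from different levels. In S1-like cells it gave 6.58, 4.80 and 7.16 CPM in sham and 13.8, 10.9 and 10.2 CPM in DOCA-salt (log2 change 0.85 ± 0.18). In S2-like cells, where a sham mouse held 5 to 8 UMIs, it gave 0.27, 0.32 and 0.56 CPM in sham and 3.44, 1.99 and 2.70 CPM in DOCA-salt (log2 change 2.88 ± 0.38, adjusted p = 0.0024 by edgeR), so it passed the filter on low counts there through the DOCA-salt group. The DOCA-salt mice were above the sham mice in both. In the other tubule cell types, where Cyp27b1 was not above the level of free RNA, its mean over all 6 mice was 0.06 to 0.48 CPM. The sham level of S2-like cells was at about that level, so the size of the S2-like change is one over background. The S1-like call was lost without sham mouse 1 or any 1 DOCA-salt mouse (adjusted p of up to 0.110 by edgeR over all alternatives). The S2-like call was not lost in these cases, which adds no support, since it passed the filter through the DOCA-salt group. Cyp2d26, Cyp2d22 and Cyp4f16 also rose in S2-like cells. Cyp2d26, of the drug-metabolising Cyp2d subfamily, gave 41.1, 38.8 and 50.0 CPM in sham and 74.7, 122 and 109 CPM in DOCA-salt (log2 change 1.21 ± 0.19), a call that held without each mouse. That of Cyp2d22 was lost without sham mouse 3 or DOCA-salt mouse 2 or 3, and that of Cyp4f16 without sham mouse 1 or DOCA-salt mouse 3. The S1-like level of Cyp2d26 was 211 ± 29 and 261 ± 34 CPM, with overlap (log2 change 0.24 ± 0.14).

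S3-like cells were few, with 20, 8 and 12 in the sham mice and 61, 51 and 35 in the DOCA-salt mice, and 11 Cyp genes could be tested. Of these Cyp2d26 alone passed the threshold, while 0.215% of all genes rose and 0.086% fell. It had 4, 0 and 3 UMIs in the sham mice and 68, 90 and 21 in the DOCA-salt mice, so it passed the filter on low counts through the DOCA-salt group, and the call was lost without any 1 sham mouse or without DOCA-salt mouse 2. None of the 11 fell past the threshold by edgeR, and 3 were lower at an unadjusted p under 0.05. The change in S3-like cells minus that in S1-like cells was tested with each mouse as a block. Of all genes 1.23% differed upward and 0.251% downward. The difference passed the threshold for Cyp2d26 (2.54 ± 0.47 on the log2 scale), Cyp2d9 (1.81 ± 0.28), Cyp4a14 (1.22 ± 0.29) and Cyp4a10 (-0.94 ± 0.21). With cells of at most 20% mt- UMIs none of the 4 passed the threshold by edgeR (adjusted p of 0.113 to 0.982), and the difference of Cyp4a14 turned to -0.17. That of Cyp4a14 was also lost with DESeq2 and without sham mouse 2 or DOCA-salt mouse 1, and that of Cyp4a10 at Leiden resolution 2 and without sham mouse 1. The S1-like level of Cyp2d9, 3.83 CPM in sham and 1.22 CPM in DOCA-salt, lay within the 0.36 to 6.05 CPM seen in other cell types, in none of which it was above the level of free RNA.

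In whole kidneys 49 Cyp genes could be tested, and 13 fell and 7 rose, against 5.72% and 11.5% of all 19658 genes. Most were the genes of the proximal tubule, which held 87.05% to 94.96% of the UMIs of Cyp4b1. Besides the 9 that fell in proximal tubule cells, these were Cyp2j7 (log2 change -0.83 ± 0.15), Cyp2a5 (-1.18 ± 0.30) and Cyp2d9 (-1.57 ± 0.44). The call of Cyp2j7 held under all 14 alternatives, and those of Cyp2a5 and Cyp2d9 were lost without sham mouse 1 or 3 or DOCA-salt mouse 2 or 3. The sums of such genes also move with the share of proximal tubule cells, which was lower in each DOCA-salt mouse. Other calls came from genes of other cells. Cyp1b1, which oxidises estrogens and polycyclic compounds, gave 1.05, 1.28 and 1.08 CPM in sham and 5.94, 10.1 and 10.2 CPM in DOCA-salt (log2 change 2.82 ± 0.23, adjusted p = 0.000373 by edgeR). Fibroblasts held 64.3% to 74.5% of its UMIs in a DOCA-salt mouse and 7.14% to 26.4% in a sham mouse. Fibroblasts were 0.08% to 0.24% of the cells in sham and 2.45% to 3.17% in DOCA-salt. Within fibroblasts Cyp1b1 gave 132, 477 and 82.4 CPM in the sham mice, from 24, 6 and 9 cells, and 143, 167 and 153 CPM in the DOCA-salt mice. With fewer than 10 cells in some sham mice this level was not tested. Outside fibroblasts Cyp1b1 was 0.83 to 1.00 CPM in sham and 2.18 to 3.49 CPM in DOCA-salt.

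Cyp4f18, a leukocyte enzyme that inactivates leukotriene B4, rose from 0.61, 1.24 and 0.60 CPM to 2.66, 2.77 and 4.29 CPM in whole kidneys (log2 change 1.88 ± 0.32). It was read in neutrophils, macrophages, B cells and dendritic cells. Macrophages held 32.1% to 36.4% of its UMIs in a sham mouse and 54.7% to 69.3% in a DOCA-salt mouse, and outside them it gave 0.39 to 0.85 CPM in sham and 1.19 to 1.37 CPM in DOCA-salt. Macrophages were 1.26% to 1.57% of the cells in sham and 4.30% to 5.58% in DOCA-salt. Neutrophils were 0.26% to 0.55% in sham and 0.73% to 1.53% in DOCA-salt, and dendritic cells 0.30% to 0.58% in sham and 1.06% to 1.28% in DOCA-salt. In dendritic cells it gave 16.3, 7.13 and 10.5 CPM, from 3 or 4 UMIs per sham mouse, and 41.3, 46.3 and 37.0 CPM (log2 change 1.88 ± 0.39, adjusted p = 0.020 by edgeR), so it passed the filter on low counts through the DOCA-salt group. This call was lost without sham mouse 2 or 3 or DOCA-salt mouse 2 or 3 (adjusted p of up to 0.0965). Cyp4f18 was the 1 Cyp gene of 10 that rose there, against 1.57% of all genes, and Cyp4b1 the 1 that fell, against 0.439%. The level of Cyp4b1 in dendritic cells was not above that of free RNA. Cyp3a13, Cyp4v3, Cyp27b1, Cyp4f16 and Cyp2d22 also rose in whole kidneys, with log2 changes between 0.51 and 1.00. Except for Cyp4v3, each of these calls was lost without sham mouse 1, and those of Cyp3a13, Cyp4f16 and Cyp2d22 also without DOCA-salt mouse 3.

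**Figure D4:**
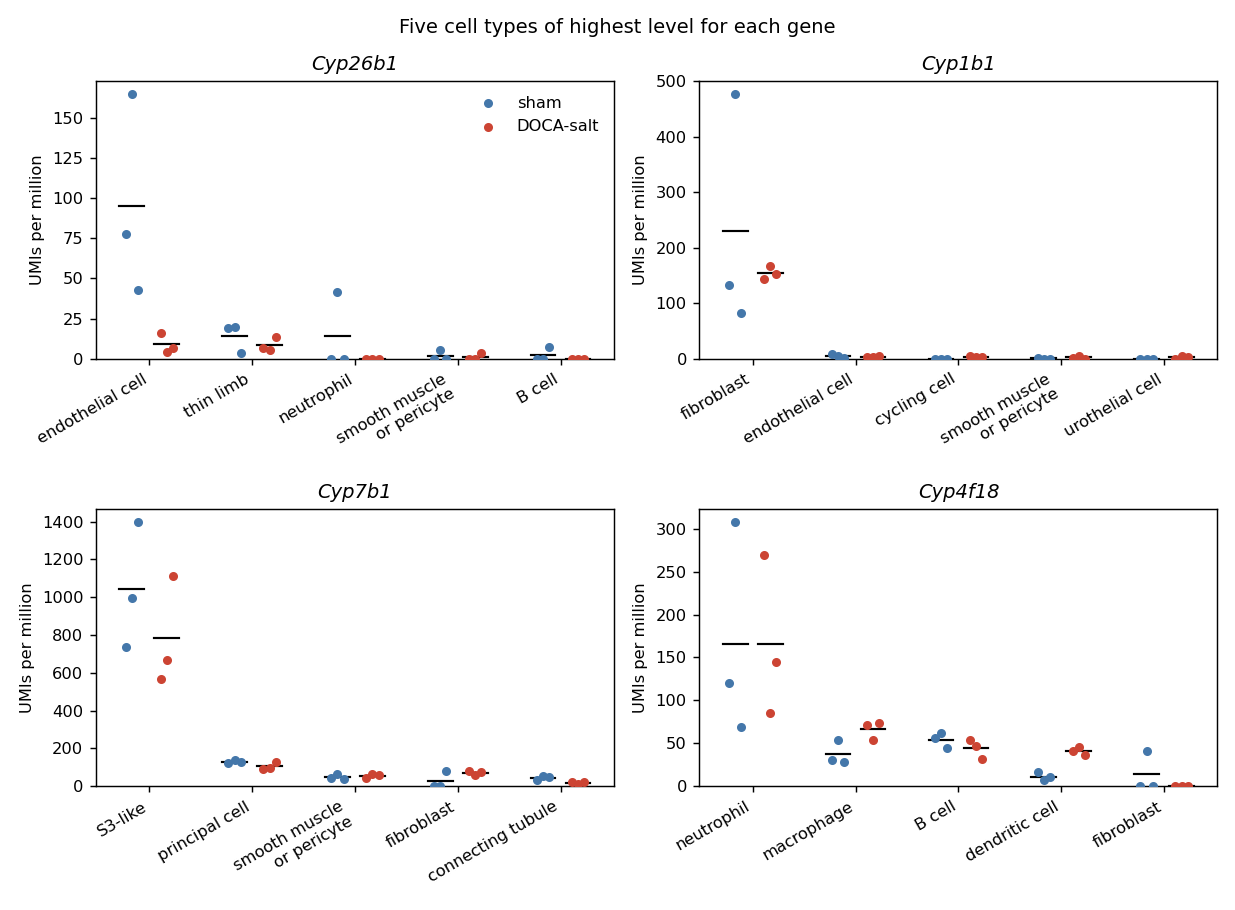
Levels of Cyp26b1, Cyp1b1, Cyp7b1 and Cyp4f18 in CPM in the 5 cell types where each was highest, with 1 point per mouse and a bar at the mean of the 3 mice of a group. Cyp26b1 was 42.9 to 165 in endothelial cells of sham mice and 4.38 to 15.7 in those of DOCA-salt mice, while fibroblasts of sham mice number 6 to 24 cells.

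Cyp26b1, which degrades retinoic acid, was the member with the greatest fall in endothelial cells. It gave 77.8, 165 and 42.9 CPM in the sham mice and 15.7, 4.38 and 6.56 CPM in the DOCA-salt mice. The sham mice spread widely but all were above the DOCA-salt mice, with a log2 change of -3.43 ± 0.50 (adjusted p = 0.00197 by edgeR). Its summed level in whole kidneys fell from 5.49 ± 3.10 to 2.11 ± 0.20 CPM (log2 change -1.49 ± 0.36), a call lost without sham mouse 1 or any 1 DOCA-salt mouse. Outside endothelial cells it gave 0.57 to 1.85 CPM in sham and 1.27 to 1.94 CPM in DOCA-salt. The endothelial cells pool clusters led by Plvap or by Cldn5, and the part of their mix in the fall of Cyp26b1 was not tested. Cyp1a1, a target of the aryl hydrocarbon receptor, rose in endothelial cells from 4.28, 6.49 and 4.97 CPM to 14.0, 7.94 and 13.5 CPM (log2 change 1.18 ± 0.30, adjusted p = 0.027). This call was lost without sham mouse 1 or 3 or DOCA-salt mouse 1 or 3 (adjusted p of up to 0.124). It was the 1 of 27 tested that rose, against 6.65% of all genes, and 5 fell, against 4.50%. Of these 5, Cyp26b1 alone was above the level of free RNA.

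In connecting tubule cells 8 of 18 Cyp genes fell and 0 rose past the threshold by edgeR (2 were higher at an unadjusted p under 0.05), where 12.2% of all genes fell and 12.3% rose. Of the 8, Cyp2j5, Cyp4a10 and Cyp4b1 were not above the level of free RNA. Cyp7b1 gave 33.7, 55.9 and 47.4 CPM in sham and 23.6, 14.0 and 20.2 CPM in DOCA-salt, without overlap (log2 change -1.42 ± 0.25, adjusted p = 0.000649). Cyp2u1, a fatty acid hydroxylase, and Cyp39a1, an oxysterol hydroxylase, had log2 changes of -0.99 ± 0.25 and -0.94 ± 0.30. Cyp2j11 and Cyp4f13 had log2 changes of -0.71 ± 0.20 and -1.02 ± 0.35. Of the calls above, that of Cyp7b1 held without each mouse in turn, and those of Cyp2u1 and Cyp2j11 were lost without sham mouse 1, that of Cyp2j11 also without DOCA-salt mouse 3. The calls of Cyp4f13 and Cyp39a1 were each lost without any 1 of 4 or more mice, among them sham mouse 3 and DOCA-salt mice 1 and 2, and also with DESeq2, by library size only and without doublet removal. Cyp2j11 and Cyp2u1 were also lost at 20% mt- UMIs, and Cyp2j11 by library size only and without doublet removal. In intercalated cells 3 of 26 rose and 2 fell, against 3.28% and 3.16%. The 2 that fell, Cyp2j13 and Cyp4b1, were not above the level of free RNA. Cyp4v3 gave 16.9, 16.4 and 18.1 CPM in sham and 36.7, 33.1 and 38.7 CPM in DOCA-salt (log2 change 1.10 ± 0.14). Cyp3a13 gave 7.03 ± 1.07 and 19.3 ± 4.93 CPM (log2 change 1.46 ± 0.23), and Cyp2d22 gave 4.82 ± 1.41 and 10.4 ± 0.46 CPM (log2 change 1.12 ± 0.25). The call of Cyp4v3 was lost at 20% mt- UMIs (adjusted p = 0.0619 by edgeR). The call of Cyp2d22 was lost without sham mouse 1 or DOCA-salt mouse 1 or 3.

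Over the 14 other cell types tested there were 34 calls, 29 of them lower. RNA of broken cells reaches the droplets of others, so each level was set against what the proximal tubule markers show in that type. A level was called above that of free RNA at 3 times the proximal tubule level scaled by the markers' median ratio. This cut covers free RNA of proximal tubule cells only, so a gene nearly absent from them passes it at few UMIs. Cyp26b1, Cyp1a1 and Cyp4f18 were at 0.14, 0.13 and 0.15 CPM there. Free RNA from other cell types was not tested. Of the 34 calls 11 were above the level of free RNA so defined, 5 higher and 6 lower. They include those of Cyp26b1, Cyp1a1, Cyp4f18, Cyp7b1 and Cyp4v3 above. The remaining 23, all lower, were at 0.58 to 2.83 times the level of free RNA. Among them was Cyp4b1, lower in 11 types with log2 changes from -2.28 to -0.89. In all 11 the proximal tubule markers had a lower median ratio to their proximal tubule level in the DOCA-salt mice than in the sham mice. In endothelial cells Cyp4b1 stood nearest the cut, at 2.83 times the level of free RNA. It was at 20.3% of its proximal tubule level there, where the highest marker was at 8.03%, and the call held under all 17 alternatives. The part of free RNA in that fall was not tested. The calls of Cyp4b1 in T or NK, cycling, dendritic, principal and thick ascending limb cells were lost without DOCA-salt mouse 3 and without at least 2 other single mice (adjusted p of up to 0.360 by edgeR over all alternatives). The others were Cyp4a10 in connecting tubule, endothelial, smooth muscle cells or pericytes, and macrophages, Cyp2j13 in endothelial and intercalated cells and macrophages, Cyp2a4 in endothelial and cycling cells, Cyp2j5 in connecting tubule cells, Cyp2e1 in macrophages and Cyp4a14 in cycling cells. In the types not yet given, the share of all genes that fell was 0.731% in T or NK cells, where 1 of 6 Cyp genes fell, 0.154% in cycling cells (3 of 18), 3.08% in distal convoluted tubule (1 of 19), 3.14% in macrophages (4 of 14), 2.93% in principal cells (1 of 17), 1.01% in smooth muscle cells or pericytes (2 of 6) and 0.787% in thick ascending limb (1 of 23).

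A list of 25 partner genes held electron donors, haem synthesis genes, epoxide hydrolases, receptors that regulate P450 genes and 3 P450 genes of other symbols. In proximal tubule cells 2 of 25 rose, where 5.07% of all genes did, and 0 fell by edgeR, where 2.38% did, with 3 lower at an unadjusted p under 0.05. Their median log2 change was -0.14, against -0.02 over all genes. Ephx1, the microsomal epoxide hydrolase, gave 2.15, 1.05 and 1.85 CPM in sham and 3.50, 3.81 and 4.03 CPM in DOCA-salt (log2 change 1.09 ± 0.24, adjusted p = 0.031). Ahr, the aryl hydrocarbon receptor, gave 2.43, 2.98 and 2.76 CPM in sham and 4.33, 4.37 and 6.00 CPM in DOCA-salt (log2 change 0.77 ± 0.18, adjusted p = 0.038). In whole kidneys Ephx1 gave 19.8 ± 1.39 and 19.7 ± 1.98 CPM, with overlap (log2 change -0.13 ± 0.11), and Ahr gave 10.2 ± 1.75 and 17.2 ± 1.77 CPM (log2 change 0.64 ± 0.14). Both levels were above those of proximal tubule cells, and the part of RNA from other cells in the proximal tubule levels was not tested. The proximal tubule calls of both were lost without sham mouse 3 or any 1 DOCA-salt mouse, and that of Ahr also without sham mouse 1 (adjusted p of up to 0.115 for Ephx1 and 0.160 for Ahr over all alternatives). Por, the reductase that feeds all microsomal P450 enzymes, did not pass the threshold. In whole kidneys 4 of the 25 partner genes fell and 2 rose, against 5.72% and 11.5% of all genes. Such sums also move with the mix of cells. In connecting tubule cells 6 of 18 fell and 3 rose, against 12.2% and 12.3%. In macrophages 5 of 18 fell and 1 rose, and 5 of 21 fell in distal convoluted tubule and 4 of 21 in endothelial cells. Of all genes 3.14%, 3.08% and 4.50% fell in these types.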

How the data were processed

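Kidneys of 3 sham and 3 DOCA-salt mice were measured by droplet 3′ single-cell RNA sequencing, 1 library per mouse. The authors deposited counts, one matrix of UMIs for each library, which Cell Ranger had built against GRCm39. The submitters' notes name Cell Ranger 9.0.0, Seurat 4.0.0 and R 4.0.3, while the file headers name another Cell Ranger release. The annotation release and the use of strand are not given in the sources used here. A library held 93172739 to 137819127 UMIs.

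Barcodes with at least 170 genes and 500 UMIs, at most 50% mt- UMIs and at most 5% hemoglobin UMIs were kept, and the barcodes of highest Scrublet score were removed as doublets at a rate of 0.8% per 1000 barcodes. Cells were clustered with scanpy 1.11.5 (counts scaled to 10000, 2000 variable genes without Cyp, mt- and hemoglobin genes, 30 components, 15 neighbours, Leiden resolution 1 with python-igraph 0.11.9) and named from marker lists, so a name is rebuilt here and not the authors'. UMIs were summed per mouse and type. Other cell types were tested where every mouse had at least 10 cells. This minimum was not applied to the segments, and 1 sham mouse had 8 S3-like cells. Sums were tested with edgeR 4.0.16 in R 4.3.3 (filterByExpr, TMM, quasi-likelihood F test, Benjamini-Hochberg adjustment over all genes tested, threshold 0.05), with the SE taken from the F value. The difference between segments was tested as an interaction with the mouse as a block. Shares of cells were compared by an exact two-sided permutation test over mice, whose smallest p is 0.1. The edgeR test of the 2 groups was checked on simulated counts with 1 fixed dispersion. Changes were set there only in genes of higher level than most Cyp genes called here. The tests of the segment difference and of shares were not simulated.

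The members and lists were chosen with earlier results of these data known. Named were the Cyp genes past the threshold in any comparison, a list of well-known renal members whatever their change, and the partner genes past the threshold in proximal tubule cells. Cyp2j6, Cyp2j7, Cyp2j11, Cyp4a31 and Cyp2a5 in proximal tubule cells, Por, and levels outside a cell type were added after their values were seen. So were the counts of partner genes outside proximal tubule cells. The alternatives were DESeq2 1.42.0, other scalings, all genes with a UMI in place of the filter, dropping 1 mouse at a time, the replicate number as a block, at most 20% mt- UMIs, no doublet removal, Leiden resolution 2, leaving out clusters from 1 mouse or of few UMIs, and other thinning. Counting clusters led by Slc7a13 as S2-like, and leaving out the cluster mostly from 1 mouse in whole kidneys, were chosen after seeing the data. Gene positions are from GENCODE on GRCm39. The authors' own cell names were not used here.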

Additional observations from a re-analysis of the deposited data

Results flagged for a closer look

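For 4 Cyp genes the DOCA-salt change differed between S3-like and S1-like proximal tubule cells by a test of the difference itself (edgeR interaction, mouse as a block), with S3-like sums resting on 8 to 61 cells per mouse. The change in S3-like minus that in S1-like cells was 2.543 for Cyp2d26 and 1.812 for Cyp2d9 on the log2 scale. Cyp2d26 had 4, 0 and 3 UMIs in the S3-like cells of the sham mice and 68, 90 and 21 in those of the DOCA-salt mice, and its rise in S3-like cells missed the threshold without any 1 sham mouse or DOCA-salt mouse 2. For Cyp2d9 the S1-like level fell from 3.83 to 1.22 CPM, and the S3-like level was 225 CPM in sham and 247 CPM in DOCA-salt. The S1-like levels of Cyp2d9 lay within the 0.36 to 6.05 CPM (mean of all 6 mice) of the other cell types, in none of which Cyp2d9 was above the level of free RNA. The part of free RNA in its S1-like change, and so in the difference, was not tested. The difference was 1.216 for Cyp4a14 (adjusted p = 0.0041), where the S3-like level was 27.01 to 99.5 CPM in sham and 64.1 to 308 CPM in DOCA-salt. It was -0.9431 for Cyp4a10 (adjusted p = 9.5e-04), whose groups overlapped in both segments. With cells of at most 20% mt- UMIs, none of the 4 differences passed the threshold by edgeR (adjusted p of 0.463 for Cyp2d26, 0.523 for Cyp2d9, 0.113 for Cyp4a10 and 0.982 for Cyp4a14, whose difference turned to -0.1701). Those of Cyp2d26 and Cyp2d9 passed it under the other alternatives, that of Cyp2d26 from this near-zero sham level. The difference of Cyp4a14 also missed the threshold with DESeq2 (adjusted p = 0.770) and without sham mouse 2 or DOCA-salt mouse 1, and that of Cyp4a10 at Leiden resolution 2 (adjusted p = 0.390) and without sham mouse 1.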

How the results depend on the processing

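In proximal tubule cells the calls of Cyp4a12a, Cyp4a12b, Cyp2j8, Cyp2j9 and Cyp27b1 held under all 16 alternatives. Without 1 mouse at a time, 7 to 13 Cyp genes fell and 1 to 5 rose. DESeq2 and the limit of 20% mt- UMIs each gave 7 that rose. For S1-like cells 2 to 10 fell and 0 to 3 rose without a mouse, 11 fell with no filter and 1 rose at Leiden resolution 2. For S2-like cells 3 to 10 fell and 2 to 5 rose without a mouse, and 7 rose at 20% mt- UMIs. For S3-like cells 0 to 1 rose and 0 to 0 fell without a mouse, 2 rose and 2 fell with no filter, and 0 rose at 20% mt- UMIs. In whole kidneys 3 to 6 rose and 9 to 16 fell without a mouse. Over other cell types 3 to 6 calls were higher and 14 to 58 lower without a mouse, 8 were higher by library size only, and 10 were higher and 72 lower with no filter. The segment difference gave 2 to 4 higher and 0 to 2 lower calls without a mouse, 2 lower with DESeq2 size factors in edgeR and 2 by library size only, and 0 higher and 0 lower at 20% mt- UMIs. Partner genes gave 0 to 2 higher and 0 to 2 lower without a mouse, 1 higher with no doublet removal and 1 at Leiden resolution 2, and 2 lower each with DESeq2, no filter and 20% mt- UMIs. The causes were not tested.

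The difference in the share of cells was -3.511 percentage points for Cyp2a4 and -6.17 for Cyp2j13 when thinned to 2000 UMIs. Unthinned it was -5.046 for Cyp2a4, -7.276 for Cyp2j13 and -10.06 for Cyp4b1. Without a mouse it was -2.481 to -1.405 for Cyp2a4, -17.07 to -13.22 for Cyp4b1 and -4.505 to -2.926 for Cyp2j13.

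Some log2 changes of genes that did not pass the threshold in proximal tubule cells turned sign. At 20% mt- UMIs this was 0.04839 for Cyp24a1 and 0.04917 for Cyp2j5, and the segment difference of Cyp4a14 was -0.1701. Cyp2j5 gave 0.05802 by library size only, 8.842e-04 with no doublet removal and 0.008245 at Leiden resolution 2. Without 1 mouse the log2 change ranged from -0.4498 to 0.2112 for Cyp24a1, from -0.1323 to 0.2113 for Cyp4a10, from -0.0286 to 0.8847 for Cyp4a14, from -0.06803 to 0.03373 for Cyp2j5 and from -0.4262 to 0.01268 for Cyp2e1.

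Deviations of same-numbered mice correlated at -0.0188, -0.413 and -0.0479. These few values cannot decide whether mice of the same number shared a batch, and the labels name none. The median depth was lowest in sham mouse 3 (4787 UMIs) and DOCA-salt mouse 3 (5869 UMIs). With the replicate number as a block, 4 Cyp genes fell and 2 rose in proximal tubule cells, 2 and 0 in S1-like cells and 3 and 2 in S2-like cells. Over other types 2 were higher, and 0 partner genes were higher. The adjusted p became 0.0625 for Cyp4a32, 0.0659 for Cyp4b1 and 0.0532 for Cyp2j13 in proximal tubule cells.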
